A study of Rattus norvegicus with 4 samples.

Results

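The 60 mitosis and chromosome segregation genes described here were listed by name, and 53 of them had a probe set annotated with that gene symbol alone on the array, out of 18166 genes tested. The other 7 (Nek2, Cenpe, Spc24, Birc5, Kif14, Anln and Ncaph) were not analysed here. The signals come from total RNA of the uterus of adult Sprague Dawley rats aged 10 to 12 weeks, taken on day 5 of pregnancy. In the ormeloxifene group (2 arrays), rats were fed ormeloxifene, an oral contraceptive that is not a steroid and acts on oestrogen receptors as an agonist or antagonist depending on the tissue, at 1.25 mg per kg on the first day of pregnancy, with gum acacia as the vehicle. In the vehicle group (2 arrays), pregnant rats of the same strain and age received the vehicle alone. The labels do not say how many animals gave RNA to an array. The p-values and SEs measure the spread between these arrays only, with each gene's spread moderated by limma towards that of all genes tested. With 2 arrays in each group the number of arrays limits the precision.

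A dividing cell switches on the genes of mitosis late in the cell cycle. Cyclin-dependent kinase 1 and its cyclins start the division, kinetochores and the spindle sort the chromosomes, the spindle checkpoint holds the cell until all are attached, and the anaphase promoting complex then releases them. In the uterus of early pregnancy, oestrogen and progesterone set which cells divide: division is known to move from the epithelium to the stroma as implantation nears. In whole tissue, fewer dividing cells and less of these RNAs in each dividing cell cannot be told apart.

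The tissue label was checked against marker genes. Smooth muscle, stroma and epithelium markers were all measured, with median log2 signals of 9.43 over 10 genes, 9.30 over 13 and 6.90 over 14, against 6.28 over all genes tested. Of all genes tested, 46.6% were lower with ormeloxifene. By limma, 1.08% were lower and 1.12% were higher at an unadjusted p under 0.05. All 10 smooth muscle markers measured were higher with ormeloxifene, 0 of them at an unadjusted p under 0.05. Their summed linear signal was 15634 and 14013 in the ormeloxifene arrays, against 12989 and 11537 in the vehicle arrays. Of the epithelium markers, 10 of 14 were lower, 1 of them (Elf3, -0.48) at an unadjusted p under 0.05, with a median difference of -0.12 and a summed signal of 3088 and 3113 with ormeloxifene, against 2891 and 3482 with vehicle. Stroma markers were lower in 6 of 13 with a median of 0.07, endothelium markers in 1 of 6 with a median of 0.18, and leucocyte markers in 2 of 11 with a median of 0.11 and a summed signal of 4984 and 5063 with ormeloxifene, against 4214 and 4271 with vehicle. A summed linear signal weighs bright genes most. Much of the leucocyte sum came from Cd74, at the 99.7 percentile of mean signal. Cd74 had log2 signals of 11.65 and 11.65 with ormeloxifene, against 11.19 and 11.36 with vehicle. Log2 signals have no true 0. The dimmest marker of these lists was the granulocyte gene S100a8, at the 4.32 percentile of mean signal, and the brightest was the stroma marker Vim, at the 99.9 percentile. The part of tissue composition in the results that follow was not tested.

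Mitosis genes lay lower in the uterus of ormeloxifene rats, and 1 vehicle array carried much of the difference. The mean log2 signal was lower with ormeloxifene for 45 of the 53 genes, where 46.6% of all genes tested were lower. Their median difference, ormeloxifene minus vehicle, was -0.43 with quartiles at -0.55 and -0.23, against a median of 0.02 over all genes. A difference of -0.5 or lower was seen in 19 of the 53 genes and in 1.69% of all genes. Both ormeloxifene arrays lay below both vehicle arrays in 28 of the 53, where 11.8% of all genes showed this order, and 0 of the 53 showed the opposite order.

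By limma, 0 of the 53 genes passed an adjusted p of 0.05, as did 0% of all genes tested, and every member had an adjusted p of 1.00 when rounded. Before adjustment, 9 members had a p below 0.05, each of them lower with ormeloxifene (Kif20a, Cdk1, Ccna2, Top2a, Ube2c, Tpx2, Cenpf, Prc1 and Kif4a), where 1.08% of all genes were lower and 1.12% were higher at that threshold. The smallest unadjusted p was 0.0051, for Kif20a, which placed it 49th of the 18166 genes by p. Members were chosen with earlier results of these data known, so their counts describe these arrays and are no independent evidence.

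**Figure D1:**
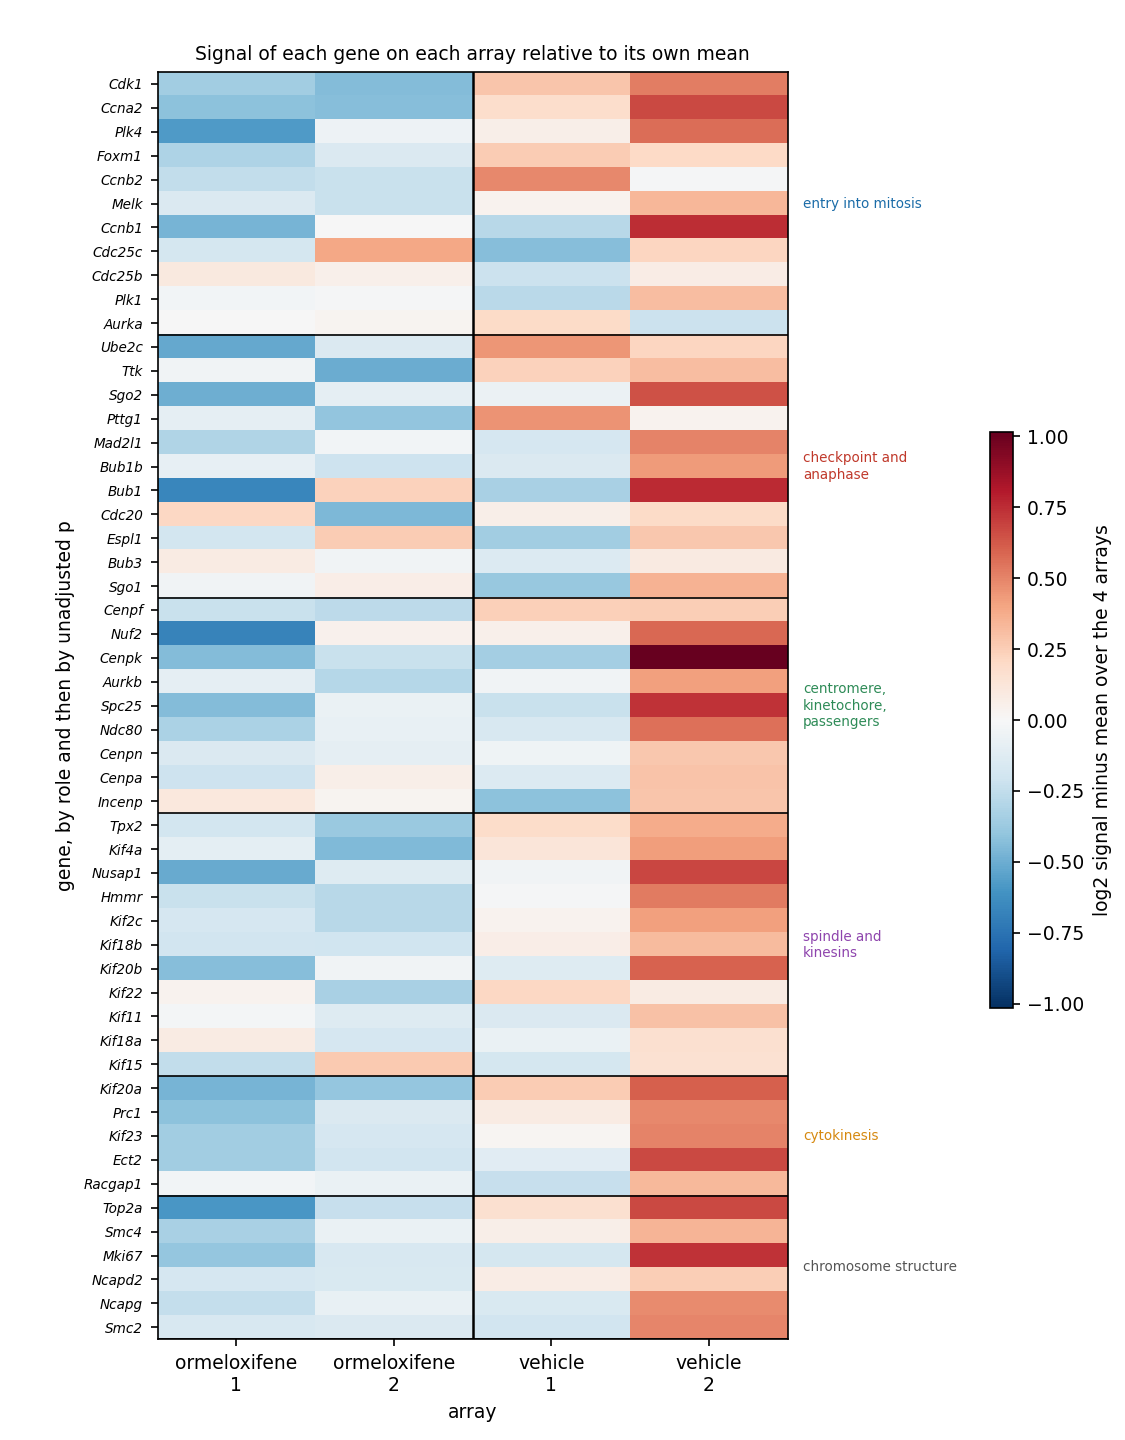
Log2 signal of each of the 53 genes on each array (columns, ormeloxifene left of the black line and vehicle right of it) minus the gene's own mean over the 4 arrays, grouped by role and ordered by unadjusted p within a role. The ormeloxifene columns are mostly blue, vehicle 1 is mixed, and vehicle 2 is the reddest column, the highest of the 4 arrays in 43 of the 53 genes.

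The 4 arrays did not stand equally far apart. Relative to each gene's mean, the members had median deviations of -0.23 and -0.14 in ormeloxifene 1 and ormeloxifene 2, against -0.04 and 0.38 in vehicle 1 and vehicle 2. Vehicle 2 was the highest of the 4 arrays in 43 members, where it was highest in 28.3% of all genes. It exceeded vehicle 1 in 47 members, against 54.6% of all genes, by a median of 0.46, close in size to the median difference between the groups. Ormeloxifene 2 minus ormeloxifene 1 had a median of 0.06 across the members, with differences in both directions and a median absolute difference of 0.197, against 0.479 between the vehicle arrays. Without vehicle 2, the median difference was -0.18, and 36 of the 53 members were lower, where 45% of all genes were. In that setting both ormeloxifene arrays lay below vehicle 1 in 29 of the 53 members, where 28.9% of all genes showed this.

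Within replicate number 1, ormeloxifene 1 was below vehicle 1 in 40 members, against 43.7% of all genes, with a median of -0.21 and a range from -0.97 (Ube2c) to 0.52 (Incenp). Within number 2, ormeloxifene 2 was below vehicle 2 in 50 members, against 52.7% of all genes, with a median of -0.55 and a range from -1.24 (Cenpk) to 0.25 (Aurka). In both numbers 38 members were lower, where 24.4% of all genes were. The 3 members not lower within number 2 were Cdc25c (0.18), Kif15 (0.11) and Aurka (0.25). Each of these within-number values compares 1 array with 1 array and has no test.

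**Figure D2:**
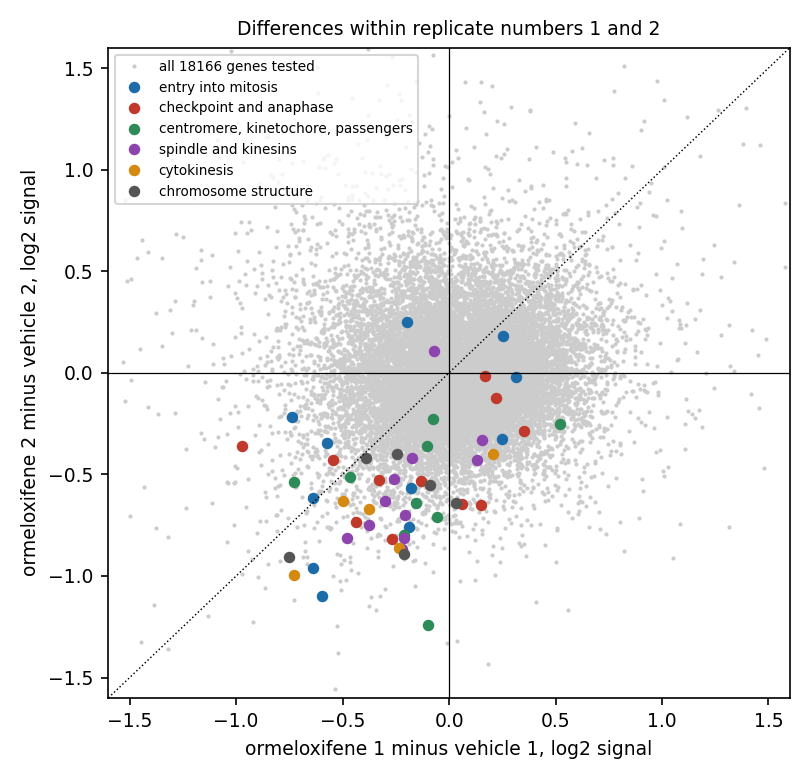
Difference of every gene within replicate number 1 (x axis) and within replicate number 2 (y axis), in log2 signal, with all genes tested in grey and members coloured by role; 23 genes lie outside the axes. Most members sit in the lower left part of the plot and below the dotted line of equal differences, so the within-number medians are -0.21 on the x axis and -0.55 on the y axis.

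The promoters of these genes were searched for known elements of cell cycle genes. The cell cycle genes homology region (CHR) is a short promoter element at which, in human cells, the LIN54 subunit of the DREAM and MuvB complexes binds, and CCAAT boxes nearby bind the factor NF-Y. RefSeq windows of 300 bases on GRCr8, from 250 before to 50 after the transcript start, were given for 45 of the 53 members and 14564 of the genes tested, and were searched on both strands for exact letters. The CHR form TTTGAA was found in 31 of 45 members (68.9%), against 15.9% of the tested genes and 18.1% of all windows in the table. The form TTTAAA was in 12 members (26.7%), against 11.6% of tested genes. CCAAT was in 33 members (73.3%), against 37.9%, and the letters GGCGG, like those of the cell cycle dependent element, were in 41 (91.1%), against 63.8%. The E2F forms TTTGGCGC and TTTCGCGC were found in 1 member each (2.22%), against 0.687% and 0.474% of tested genes.

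The windows below belong to the member with the smallest p in each role group among those with a window, and are shown so that these elements can be read beside the values. Each gives the 250 bases before the transcript start, 5′ to 3′ on the gene's strand, with every match to the 6 letter strings above, on either strand, in capitals. In Cdk1 a CCAAT match on the opposite strand and a GGCGG match overlap. Some annotated genes begin before the transcript start used here. The Ttk gene begins at base 93632678, so its whole stretch lies inside the gene. The stretches of Cdk1 (gene from 19265252), Kif4a (from 69761803) and Cenpf (from 103760931, minus strand) lie partly inside their genes. The stretches lie at chr20:19265043-19265292 on the plus strand (Cdk1), chr8:93634389-93634638 on the plus strand (Ttk), chr13:103760887-103761136 on the minus strand (Cenpf), chrX:69761633-69761882 on the plus strand (Kif4a), chr18:26504172-26504421 on the plus strand (Kif20a) and chr10:84473094-84473343 on the minus strand (Top2a).
Cdk1: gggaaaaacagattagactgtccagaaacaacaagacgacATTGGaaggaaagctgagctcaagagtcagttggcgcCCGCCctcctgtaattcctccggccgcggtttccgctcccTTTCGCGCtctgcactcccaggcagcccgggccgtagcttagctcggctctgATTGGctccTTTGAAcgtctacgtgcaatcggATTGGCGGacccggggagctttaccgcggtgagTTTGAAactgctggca
Ttk: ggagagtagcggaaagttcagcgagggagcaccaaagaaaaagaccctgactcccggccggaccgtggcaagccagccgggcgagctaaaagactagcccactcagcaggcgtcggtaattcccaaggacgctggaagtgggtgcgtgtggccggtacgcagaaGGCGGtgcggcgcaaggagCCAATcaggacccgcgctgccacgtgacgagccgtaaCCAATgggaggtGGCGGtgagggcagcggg
Cenpf: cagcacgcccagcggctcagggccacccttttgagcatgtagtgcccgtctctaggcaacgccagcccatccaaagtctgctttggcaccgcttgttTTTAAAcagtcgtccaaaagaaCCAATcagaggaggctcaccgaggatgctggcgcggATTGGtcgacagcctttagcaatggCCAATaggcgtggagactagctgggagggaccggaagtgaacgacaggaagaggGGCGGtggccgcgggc
Kif4a: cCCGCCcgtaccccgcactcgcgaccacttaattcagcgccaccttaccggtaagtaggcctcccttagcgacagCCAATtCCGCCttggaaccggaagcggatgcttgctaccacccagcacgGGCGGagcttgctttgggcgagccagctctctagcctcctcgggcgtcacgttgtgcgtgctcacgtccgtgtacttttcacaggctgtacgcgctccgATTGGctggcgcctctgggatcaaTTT
Kif20a: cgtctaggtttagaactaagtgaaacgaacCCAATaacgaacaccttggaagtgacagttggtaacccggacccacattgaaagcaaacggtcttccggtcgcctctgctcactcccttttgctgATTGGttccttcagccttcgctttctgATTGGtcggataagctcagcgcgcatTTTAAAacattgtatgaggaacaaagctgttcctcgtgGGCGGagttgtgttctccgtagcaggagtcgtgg
Top2a: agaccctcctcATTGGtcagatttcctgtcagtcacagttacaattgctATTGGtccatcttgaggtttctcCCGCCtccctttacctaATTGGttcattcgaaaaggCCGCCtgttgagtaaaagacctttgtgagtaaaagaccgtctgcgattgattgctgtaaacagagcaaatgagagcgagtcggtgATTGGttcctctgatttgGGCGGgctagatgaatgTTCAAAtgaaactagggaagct

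Counting the first base of the transcript as 1 and the base before it as -1, Cdk1 held TTTGAA from bases -72 and -16, with CCAAT matches upstream of each, and was the member with TTTCGCGC. In Top2a the TTTGAA match lay on the opposite strand from base -22, and in Kif20a only the TTTAAA form was found, from base -72. Past the stretch printed, Ttk held a TTTGAA match on the opposite strand from base 5, and Cenpf held TTTGAA from base 3. The TTTGAA match of Kif4a ran from base -3 to 3, so that its first letters close the stretch. Cenpf also held TTTAAA from base -153. Across members, the median difference was -0.47 in the 37 with either CHR form and -0.16 in the 8 with neither (Bub3, Cdc25b, Cenpk, Cenpn, Kif18a, Kif18b, Melk and Sgo1). By single element, the median was -0.48 with TTTGAA and -0.30 without, and -0.41 with TTTAAA and -0.40 without. It was -0.47 with CCAAT and -0.38 without, and -0.40 with GGCGG and -0.45 in the 4 without. Ccna2, Ube2c and Tpx2, all with an unadjusted limma p under 0.05, had no window. These are descriptions of unequal groups with no test, and a match of letters does not show that a factor binds.

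Among the kinases, cyclins and phosphatases of entry into mitosis, 8 of 11 members were lower, with a median of -0.46. Beside this count and those of the other role groups, 46.6% of all genes tested were lower. Cdk1, the kinase that drives entry into mitosis, had signals of 6.004 and 5.92 with ormeloxifene, against 6.64 and 6.88 with vehicle, a difference of -0.80 ± 0.21 (SE) or 1.74-fold. Ccna2, the cyclin that partners Cdk2 in S phase and Cdk1 later, had 6.43 and 6.42 with ormeloxifene, against 7.03 and 7.52 with vehicle, a difference of -0.85 ± 0.24. For both genes the groups were apart, and the 2 ormeloxifene arrays were nearly equal. Plk4, the kinase of centriole duplication, had 5.27 and 5.79 with ormeloxifene, against 5.91 and 6.41 with vehicle (-0.63 ± 0.27). Foxm1, a transcription factor of late cell cycle genes, had 6.39 and 6.56 with ormeloxifene, against 6.97 and 6.91 with vehicle (-0.46 ± 0.21). In these genes too, all ormeloxifene values lay below all vehicle values.

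The B-type cyclins, partners of Cdk1, differed by -0.48 (Ccnb2) and -0.47 (Ccnb1). Ccnb2 was the only member with 2 probe sets: the brighter, used here, had 7.64 and 7.66 with ormeloxifene, against 8.38 and 7.88 with vehicle, and the dimmer differed by -0.80. Ccnb1 had 5.72 and 6.18 with ormeloxifene, against 5.91 and 6.94 with vehicle, so that vehicle 1 lay between the ormeloxifene arrays. The kinase Melk differed by -0.37 with groups apart. The remaining members stood near 0 and overlapped between groups: Cdc25c at 0.22 and Cdc25b at 0.15, phosphatases that activate Cdk1, the mitotic kinase Plk1 at -0.04, and the centrosomal kinase Aurka at 0.03. Of this group, 4 members changed sign when 1 array was left out. Without vehicle 2, Ccnb1 was 0.04, Plk1 0.26 and Aurka -0.18; Cdc25c was -0.07 without ormeloxifene 2 and -0.11 without vehicle 1. The group's median without vehicle 2 was -0.22.

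Genes of the spindle checkpoint and of anaphase were lower in 8 of 11 members, with a median of -0.33. Within replicate number 1, 6 of the 11 were lower (43.7% of all genes), and within number 2, 11 were (52.7%). Ube2c, the ubiquitin-conjugating enzyme of the anaphase promoting complex, had 6.59 and 6.97 with ormeloxifene, against 7.56 and 7.33 with vehicle, a difference of -0.67 ± 0.23 or 1.59-fold. Pttg1, the securin that holds separase inactive, had 6.87 and 6.57 with ormeloxifene, against 7.42 and 6.996 with vehicle (-0.49 ± 0.24). These 2 genes were higher in vehicle 1 than in vehicle 2, unlike most members. Ttk, a checkpoint kinase, had 4.64 and 4.17 with ormeloxifene, against 4.91 and 4.99 with vehicle (-0.54 ± 0.24). Sgo2, a shugoshin that protects centromeric cohesion, had 4.38 and 4.78 with ormeloxifene, against 4.82 and 5.52 with vehicle (-0.59 ± 0.29). The groups were apart in the lower direction in these 4 of 11 genes, those of smallest p, where 11.8% of all genes were. Ttk and Sgo2 were dim, at the 14.3 and 17.2 percentile of mean signal among genes tested.

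The other 7 checkpoint and anaphase genes overlapped between the groups. The checkpoint genes Bub1, Mad2l1 and Bub1b differed by -0.43, -0.33 and -0.29, and Cdc20, an activator of the anaphase promoting complex, by -0.25. Separase (Espl1) differed by 0.07, Bub3, which also serves outside mitosis and was the brightest member at the 97.2 percentile, by 0.05, and Sgo1 by 0.03. Bub1 had 4.77 and 5.66 with ormeloxifene, against 5.10 and 6.19 with vehicle, so the replicate numbers stood further apart than the groups. The differences of 6 members changed sign without 1 array. Bub1 was 0.02 without ormeloxifene 1 and 0.12 without vehicle 2, Mad2l1 was 0.00 without vehicle 2, and Cdc20 was 0.08 without ormeloxifene 2. Espl1 was -0.15 and Sgo1 -0.02 without ormeloxifene 2; without vehicle 1 they were -0.24 and -0.34. Bub3 was -0.01 without ormeloxifene 1 and -0.06 without vehicle 1. Without vehicle 2 the median of the group was 0.00 to 2 decimals, with a value of -0.003.

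Of the centromere, kinetochore and chromosomal passenger genes, 8 of 9 were lower, with a median of -0.40. Cenpf, a kinetochore-associated protein of late cell cycle, had 5.66 and 5.62 with ormeloxifene, against 6.13 and 6.14 with vehicle, a difference of -0.49 ± 0.20. Its arrays differed by -0.04 between the ormeloxifene samples and by 0.01 between the vehicle samples, and its difference was -0.47 within number 1 and -0.51 within number 2. Nuf2, of the Ndc80 complex that grips microtubules, had 5.28 and 6.001 with ormeloxifene, against 6.01 and 6.54 with vehicle (-0.63 ± 0.31). Cenpk, of the inner kinetochore, had 5.02 and 5.24 with ormeloxifene, against 5.12 and 6.48 with vehicle (-0.67 ± 0.41). Its difference came from vehicle 2, since vehicle 1 lay between the ormeloxifene arrays. Aurkb, the kinase of the chromosomal passenger complex, had 6.10 and 5.90 with ormeloxifene, against 6.15 and 6.61 with vehicle (-0.38 ± 0.24).

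The further Ndc80 complex subunits Spc25 and Ndc80 differed by -0.51 and -0.40, with overlapping groups. Cenpn, which reads centromeric nucleosomes, differed by -0.23 with groups apart, and the centromeric histone Cenpa by -0.15. Incenp, the scaffold of the passenger complex, stood at 0.13 and was the only one of the 9 above 0. It had 6.18 and 6.11 with ormeloxifene, against 5.67 and 6.36 with vehicle, and its difference was -0.21 without vehicle 1. Without vehicle 2, Cenpa was 0.06, Cenpk was 0.01 and the median of the group was -0.03.

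**Figure D3:**
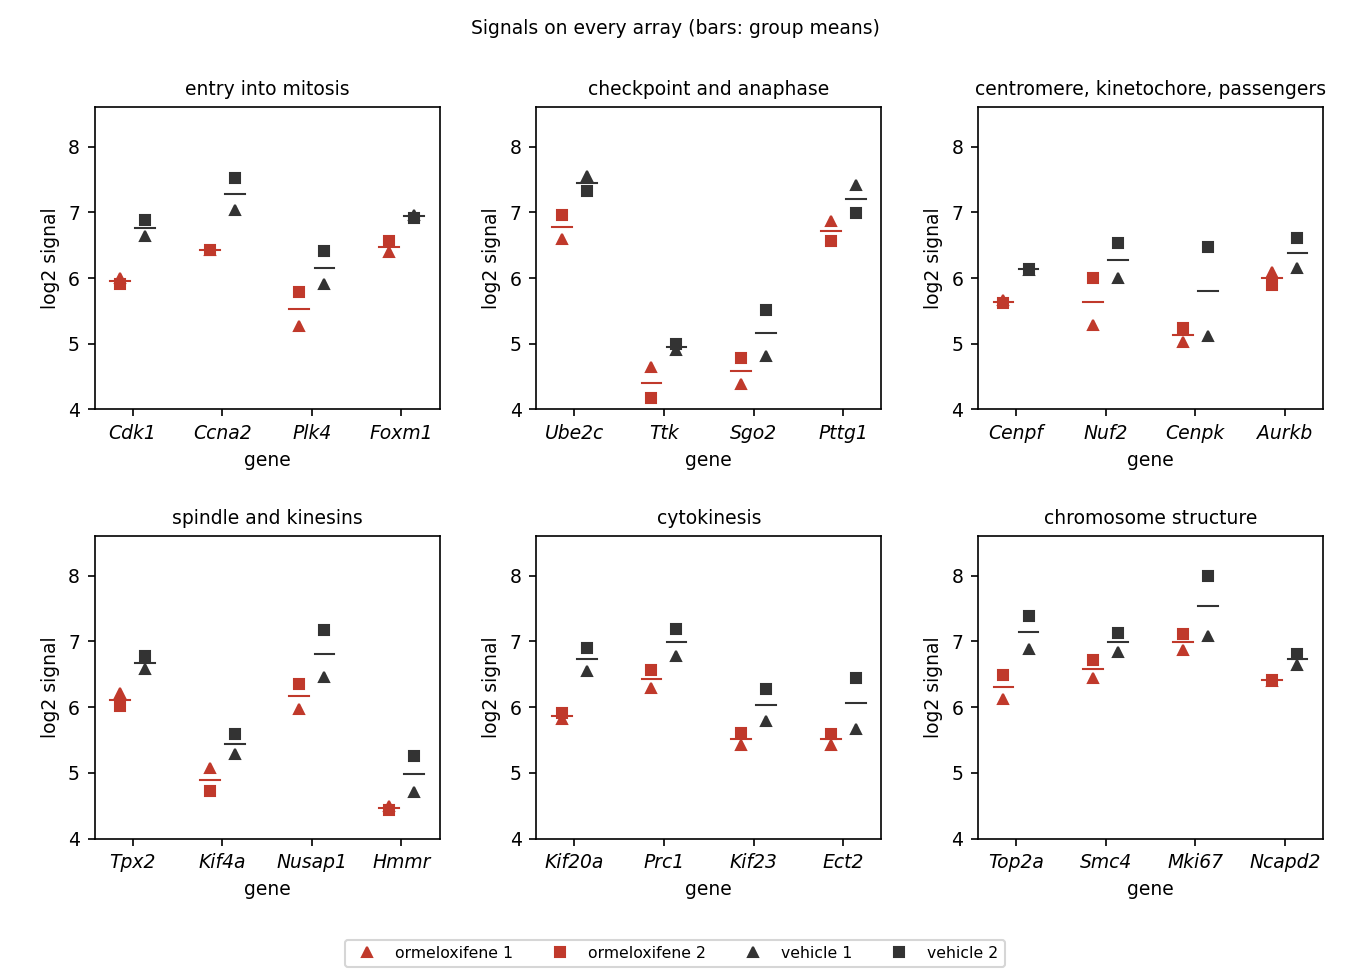
Log2 signal on every array for the 4 genes with the smallest p in each role group, ormeloxifene in red left of vehicle in black, with triangles for replicate 1, squares for replicate 2 and short bars for group means. In Cdk1, Ccna2, Cenpf and Kif20a the red points lie close together below both black points, whereas in Cenpk and Mki67 the black triangle lies near the red points.

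Spindle genes and mitotic kinesins were lower in 10 of 11 members, with a median of -0.45. Tpx2, which activates Aurka and nucleates microtubules, had 6.21 and 6.02 with ormeloxifene, against 6.58 and 6.77 with vehicle, a difference of -0.56 ± 0.21 or 1.48-fold. Kif4a, a chromosome-bound kinesin, had 5.07 and 4.72 with ormeloxifene, against 5.29 and 5.59 with vehicle (-0.55 ± 0.23). Nusap1, which bundles spindle microtubules, had 5.98 and 6.36 with ormeloxifene, against 6.46 and 7.17 with vehicle (-0.65 ± 0.29). Hmmr, a spindle-associated protein that also binds hyaluronan, had 4.49 and 4.44 with ormeloxifene, against 4.71 and 5.25 with vehicle (-0.51 ± 0.25). In these 4 genes, those of smallest p, the groups did not overlap, and vehicle 2 was the highest array in each. In all, 7 of 11 members were apart in the lower direction, where 11.8% of all genes were.

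The groups were also apart in Kif2c, a microtubule-depolymerising kinesin (-0.45), in Kif18b (-0.39), which works at microtubule ends, and in the chromosome-arm kinesin Kif22 (-0.30). Kif20b, the dimmest member at the 9.96 percentile, differed by -0.47 with overlap. Kif11, the motor that pushes spindle poles apart, differed by -0.15, Kif18a by -0.09 and Kif15, a motor that can back up Kif11, by 0.02. Each of these 3 changed sign in some setting: Kif11 was 0.08 without vehicle 2, Kif18a was 0.04 without ormeloxifene 2 and 0.03 without vehicle 2, and Kif15 was -0.24 without ormeloxifene 2, -0.15 without vehicle 1 and -0.01 with arrays centred on their medians. Without vehicle 2 the median of the group was -0.26.

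The 5 cytokinesis genes were all lower, with a median of -0.55. Kif20a, the kinesin that carries passenger proteins to the central spindle, had 5.83 and 5.91 with ormeloxifene, against 6.56 and 6.90 with vehicle, a difference of -0.86 ± 0.22 or 1.82-fold, with a 95% interval from -1.38 to -0.35. Among the 53 genes this was the lowest difference, and it was -0.69 without vehicle 2. Prc1, which bundles the central spindle, had 6.29 and 6.56 with ormeloxifene, against 6.79 and 7.19 with vehicle (-0.56 ± 0.24). Kif23, the motor of centralspindlin, had 5.42 and 5.60 with ormeloxifene, against 5.79 and 6.27 with vehicle (-0.52 ± 0.24). Ect2, the exchange factor that activates RhoA at the cleavage furrow, had 5.43 and 5.59 with ormeloxifene, against 5.67 and 6.45 with vehicle (-0.55 ± 0.29). These 4 of the 5 genes, those of smallest p, were apart in the lower direction, where 11.8% of all genes were. Racgap1, the partner of Kif23 in centralspindlin, differed by -0.10 with overlapping groups, and by 0.19 without vehicle 2. The median of the 5 without vehicle 2 was -0.28.

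All 6 genes of chromosome structure measured were lower, with a median of -0.36. Top2a, the topoisomerase that untangles sister chromatids, had 6.13 and 6.48 with ormeloxifene, against 6.88 and 7.39 with vehicle, a difference of -0.83 ± 0.26 or 1.78-fold. Its values within the replicate numbers were -0.75 and -0.91. Mki67, which coats mitotic chromosomes and encodes the proliferation marker Ki-67, had 6.88 and 7.11 with ormeloxifene, against 7.09 and 8.001 with vehicle (-0.55 ± 0.32). Here vehicle 1 lay just below ormeloxifene 2, and the difference within number 1 was -0.21 against -0.89 within number 2. The condensin subunits Smc4 and Ncapd2, which compact chromosomes, differed by -0.40 ± 0.22 and -0.32 ± 0.21 with groups apart. Smc4 had 6.45 and 6.71 with ormeloxifene, against 6.84 and 7.13 with vehicle. Ncapd2 had 6.40 and 6.41 with ormeloxifene, against 6.64 and 6.81 with vehicle. The condensin subunits Ncapg (-0.32) and Smc2 (-0.30) overlapped between groups, and Smc2 was 0.04 without vehicle 2. The median of the 6 was -0.16 in that setting.

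**Figure D4:**
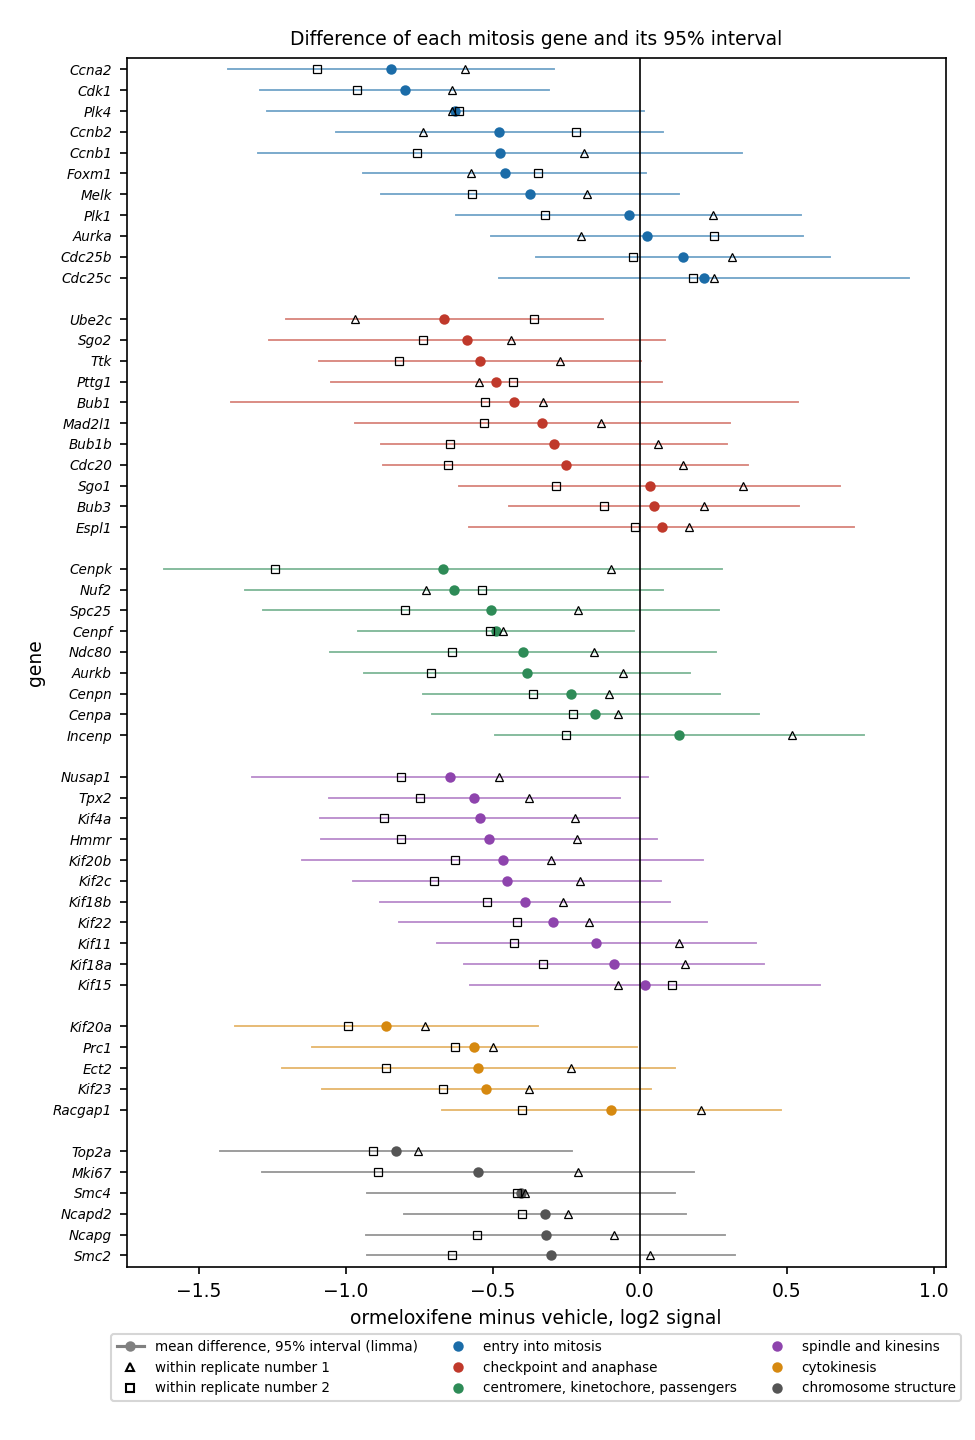
Ormeloxifene minus vehicle difference in log2 signal for each of the 53 genes (filled points, with the 95% interval from limma as a line), by role, with the difference within replicate number 1 (open triangles) and number 2 (open squares). The lowest points are Kif20a at -0.86, Ccna2 at -0.85, Top2a at -0.83 and Cdk1 at -0.80, and squares lie left of triangles in most genes.

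The size of the difference did not follow brightness in a simple way. The 27 brighter members had a median difference of -0.40 and the 26 dimmer ones -0.44. Of the brighter members 17, and of the dimmer 11, were apart between groups in the lower direction, where 11.8% of all genes were. The spread within the vehicle group was wider than within the ormeloxifene group: the absolute difference between the vehicle arrays had a median of 0.35 in the brighter and 0.57 in the dimmer members, against 0.17 and 0.25 between the ormeloxifene arrays.

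Further genes of the cell cycle were compared through 7 other lists. Beside the counts that follow, 46.6% of all genes tested were lower with ormeloxifene. Of 19 further spindle and cytokinesis genes, 16 were lower, with a median of -0.26. Among them Cdca3, a trigger of mitotic entry, had 5.92 and 6.01 with ormeloxifene, against 6.73 and 6.79 with vehicle (-0.79 ± 0.20), and the mitotic kinase Pbk differed by -0.40 ± 0.21. Of 24 further centromere and kinetochore genes, 18 were lower, with a median of -0.12, and their members of smallest p were Cenpp (-0.62 ± 0.23) and Cenpi (-0.44 ± 0.21). The DNA replication genes were lower in 20 of 23, with a median of -0.18. Within replicate number 1, 11 of the 23 were lower with a median of 0.01, where 43.7% of all genes were lower. Within number 2, 22 were lower with a median of -0.44, where 52.7% of all genes were. Pcna, the sliding clamp of DNA polymerases, had 8.26 and 8.34 with ormeloxifene, against 8.75 and 9.26 with vehicle (-0.71 ± 0.24), and Mcm6, of the replicative helicase, differed by -0.53 ± 0.23.

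The anaphase promoting complex was lower in 10 of 14 members with a median of -0.04, and its members of smallest p were Fbxo5 (-0.27 ± 0.23), an inhibitor of the complex, and Anapc5 (-0.16 ± 0.21). Cohesin and its loaders were lower in 6 of 10 members, where 46.6% of all genes tested were, with a median of -0.05. Within that list Esco2, the acetyltransferase that establishes cohesion in S phase, had 5.39 and 5.39 with ormeloxifene, against 6.28 and 6.12 with vehicle (-0.81 ± 0.21), and the cohesin release factor Wapl differed by -0.16 ± 0.20. The DREAM and MYBL2 list had a median of -0.02 over 9 genes, with the pocket proteins Rbl1 at -0.53 ± 0.27 and Rbl2 at 0.31 ± 0.20. Of 3 further condensin genes, 2 were lower with a median of -0.12, with Ncapg2 at -0.33 ± 0.23 and Ncaph2 at 0.16 ± 0.20. Over the 7 lists, 78 of 102 genes were lower, where 46.6% of all genes tested were. Within replicate number 1, 56 of the 102 were lower (43.7% of all genes), and within number 2, 85 were (52.7%). By limma, 4 of the 102 (Esco2, Cdca3, Pcna and Cenpp) were lower at an unadjusted p under 0.05, where 1.08% of all genes were. At that threshold 0 were higher, where 1.12% of all genes were, and 0 passed the adjusted threshold, as did 0% of all genes. Without vehicle 2 the medians were -0.09 for further spindle and cytokinesis, 0.06 for further centromere and kinetochore, -0.07 for DNA replication, 0.01 for the anaphase promoting complex, 0.05 for cohesin, 0.10 for DREAM and MYBL2 and 0.04 for further condensin. Without ormeloxifene 1, cohesin had a median of 0.06 and further condensin of 0.17. Differences between these lists and the 53 genes were not tested.

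**Figure D5:**
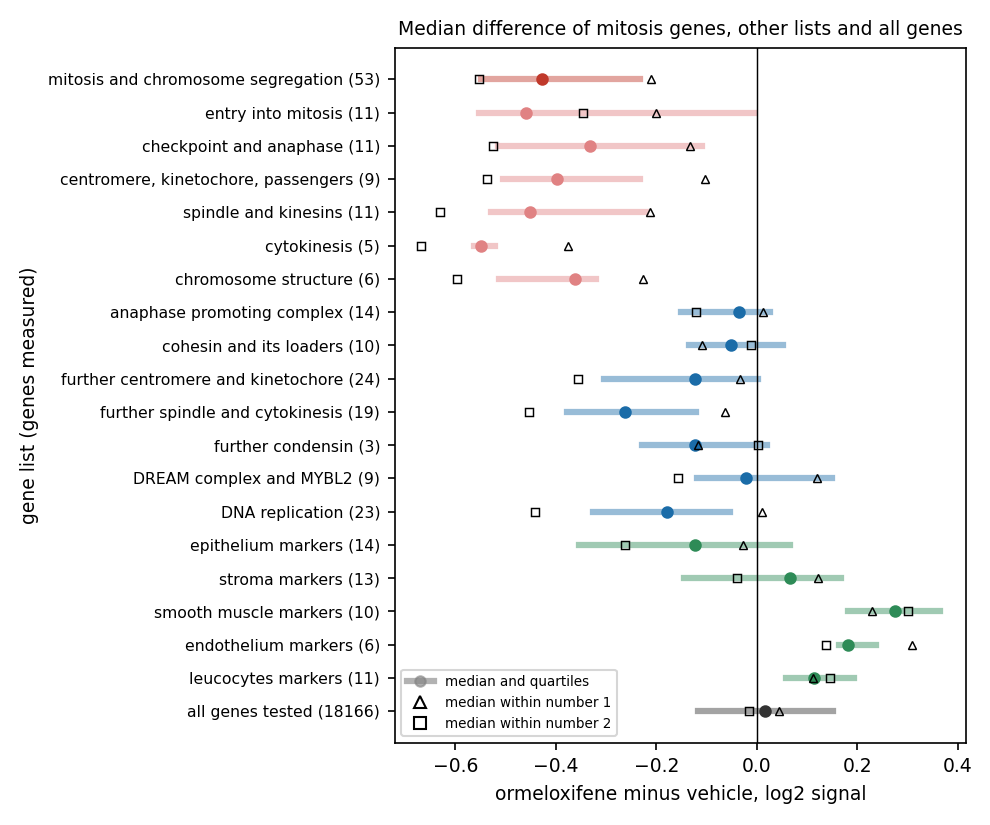
Median difference, ormeloxifene minus vehicle in log2 signal, of the 53 mitosis genes, of their 6 role groups, of the 7 other lists, of cell type markers and of all genes tested, with quartiles as bars and the medians within replicate number 1 (triangles) and number 2 (squares). The role groups lie between -0.55 and -0.33, DNA replication at -0.18 and all genes at 0.02, and the square lies left of the triangle for the 53 genes.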

How the data were processed

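The authors made the values with Affymetrix Expression Console, per the submitters' processing notes. No version, summary method or genome build was found in the labels or headers. The deposited table holds values for 36685 probe sets on each of 4 arrays, taken to be log2 signals from their range. Per the labels' protocols, 100 ng of Trizol-extracted total RNA was made into biotin-labelled DNA. Columns did not share a distribution (medians from 5.67 to 5.93), so they were quantile normalized over all probe sets.

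Of 18511 probe sets with exactly 1 symbol (18394 of them matched to GRCr8, for names and promoters only), the one with the highest mean was kept for each gene. Differences come from limma 3.58.1 in R 4.3.3 (lmFit, eBayes, 2-sided, adjusted by Benjamini-Hochberg over all genes tested), which was tested on simulated data. Moderation gave 7.55 degrees of freedom, 2 of them residual. An exact permutation test of 1 gene cannot go below p = 0.333 here. Members, role groups, lists and motifs were chosen with earlier results of these data known. Every member is given with its difference, the 4 of smallest p in each role group with their values on every array, and the 2 of smallest p in each other list; further values were shown where they bear on a statement. Exactly equal deposited values at 1 probe set occurred 1039 times between same-numbered arrays of the groups and 0 times in the other array pairs. Over all genes, signals correlated at r = 0.980 between the arrays numbered 1 and 0.983 between those numbered 2. Within groups r was 0.973 (ormeloxifene) and 0.963 (vehicle). The labels name no batch, so differences are also given within each number. Alternatives changed the scale, the choice of probe set, the genes tested, the moderation, the block and the arrays.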

Additional observations from a re-analysis of the deposited data

How the results depend on the processing

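The median difference of the 53 mitosis genes was -0.43, and it stayed below 0 in every alternative run, from -0.58 without vehicle 1 to -0.18 without vehicle 2. The number of members lower ran from 36 to 51 without 1 array, against 45, where the share of all genes lower ran from 45% to 50.5%. The number at an unadjusted p under 0.05 and lower was 9 (1.08% of all genes). It was 4 on the values as deposited (0.468%), 5 with arrays centred on their medians (1.01%) and 5 with all probe sets tested (1.43% of probe sets). Members lower with groups apart numbered 28 (11.8% of all genes), but 18 on the values as deposited, with or without the block (7.65%). Without 1 array this order is easier to meet. It was met by 29 members without vehicle 2 (28.9% of all genes) and by 31 without ormeloxifene 1 (29.1%). Without ormeloxifene 2 it was met by 39 members (26.7%), and without vehicle 1 by 48 (33.9%). Arrays with the same number share only that number in the labels; their deviations from the group means correlated at r = 0.475 across all genes. With the replicate block, 28 members were lower at an unadjusted p under 0.05, as were 3.02% of all genes, and 0 passed the adjusted threshold. With the replicate block on the values as deposited, 27 were lower at an unadjusted p under 0.05, as were 3.28% of all genes, and 3 members passed: Kif20a (adjusted p = 0.0382), Top2a (0.0479) and Ccna2 (0.0482). Over all genes or probe sets tested, calls ran from 0 to 5 in the other settings and reached 84 in that one.

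Differences of 18 single members changed sign in 25 instances with 1 array left out; the cause was not tested. Over the 4 settings that each leave out 1 array, their values ran as follows: Bub1 -0.97 to 0.12, Bub3 -0.064 to 0.16, Cdc25c -0.11 to 0.54, Cdc20 -0.58 to 0.081, Espl1 -0.24 to 0.39, Sgo1 -0.34 to 0.40, Kif15 -0.24 to 0.27, Kif18a -0.21 to 0.038, Incenp -0.21 to 0.48, Ccnb1 -0.99 to 0.041, Plk1 -0.33 to 0.26, Aurka -0.18 to 0.23, Mad2l1 -0.67 to 0.0031, Cenpa -0.36 to 0.061, Cenpk -1.35 to 0.010, Kif11 -0.37 to 0.075, Racgap1 -0.38 to 0.19 and Smc2 -0.65 to 0.042. Leaving out 1 array also leaves its same-numbered array without a counterpart. Bub1 (-0.33 and -0.53), Ccnb1 (-0.19 and -0.76) and Mad2l1 (-0.13 and -0.53) were lower within both replicate numbers. So were Cenpa (-0.08 and -0.23) and Cenpk (-0.10 and -1.24). Cdc25c was higher within both (0.25 and 0.18), and the others of the 18 had opposite signs in the 2 numbers. With arrays centred on their medians, Kif15 was -0.0092. Where 1 array stands for a group, it is taken to vary like the other group. The table gives no signal over background, so the precision of dim members such as Kif20b cannot be stated.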
